A study of Mus musculus with 20 samples.

Results

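Aminoacyl-tRNA synthetases are the enzymes that join each amino acid to its transfer RNA, the step that supplies the ribosome with charged tRNA. Most amino acids have a pair of nuclear genes for it, one for the cytosolic enzyme and one, with a symbol ending in 2, for the enzyme imported into mitochondria. Gars1 and Kars1 are exceptions whose single gene supplies both compartments, and they were counted here with the cytosolic enzymes. When charging falls short, uncharged tRNA activates the kinase GCN2, the product of Eif2ak4, and translation of the transcription factor ATF4 rises. Many cytosolic synthetase genes are known targets of ATF4, several of them through a C/EBP-ATF response element near the gene start.

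The family was chosen with earlier results of these data known. It was taken as 35 named genes, 19 cytosolic and 16 mitochondrial, listed by symbol. Of these, 33 were measured among 18820 genes on the arrays, 17 of 19 cytosolic and 16 of 16 mitochondrial. Aars1 lay only on a probe set shared with Exosc6, and Farsb only on one shared with Sgpp2, so neither was given a value. Iars1 alone had a second single-gene probe set, which gave changes of 1.23 and 1.09 where the one used gave 1.14 and 1.00.

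RNA came from 2 immortalised clonal lines of mouse hypothalamus, mHypoE-46, of embryonic origin (E46 below), and mHypoA-2/12, of adult origin (A2/12 below), collected after 24 h with or without serotonin. Total RNA was hybridised on 20 arrays, 4 for each of 5 groups. E46 had a control group, a group labelled 1 µg/ml serotonin and a group labelled 100 µg/ml, while A2/12 had a control group and a group labelled 100 µg/ml. All cells were placed in serum-free medium for 4 hours before serotonin. The submitters describe E46 as serotonin sensitive and A2/12 as unresponsive. The series concerns food intake and hypothalamic serotonin signalling in cachectic mice, and each line is 1 clone and not tissue. In the E46 serotonin arrays one label gives the doses the other way round from the title. The doses below follow the titles, and every E46 dose statement rests on that choice. Nothing in the labels says that a group's 4 arrays are separate cultures, and p-values here therefore describe the scatter of these arrays, which may be technical.

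Values are log2 signals, on which a difference of 1 is a 2-fold change, and they are relative to the other genes of the same array. Less RNA per cell of a type and fewer such cells cannot be told apart in these bulk samples. The measured synthetases lay between 5.29 and 11.95 in single arrays. All 33 were above the background level of each group, 4.35 to 4.66, set as the 95th percentile of the signals of 1155 genes for odorant and pheromone receptors. Arrays correlated at 0.927 to 0.995 with each other. The upper quartile of all signals was under 8.2 in 4 arrays: E46 control replicate 1, E46 labelled 1 replicates 1 and 3, and A2/12 control replicate 2. A gene was called at a Benjamini-Hochberg adjusted p below 0.05 over all 18820 genes in limma, and "rose" and "fell" are used for called genes.

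As a check of the labelled cell type, 5 of 10 measured neuronal markers were above background in the controls of both lines, while Dcx, Elavl4, Nefl, Rbfox3 and Snap25 were at or below it. Of 8 astrocyte markers 6 were above it in E46 controls and 4 in A2/12 controls, with Gfap and Aqp4 below in both lines. Of 5 fibroblast markers 4 were above it in every group, and none of 3 endothelial markers was in either control group. The mean of the fibroblast list was 8.14 to 8.29 per array in E46 controls and 6.67 to 7.25 at the labelled 100, and 9.67 to 9.82 and 7.54 to 8.10 in A2/12. The mean of the astrocyte list went from 6.38 to 6.47 in E46 controls down to 5.30 to 5.49 at the labelled 100, and from 5.61 to 5.66 down to 5.06 to 5.20 in A2/12. The neuronal list went from 5.01 to 5.11 down to 4.59 to 4.74 in E46 and from 5.24 to 5.31 down to 4.78 to 4.83 in A2/12. Of its 10 genes 3 were called lower in each line and 1 was called higher in A2/12, and the median change was -0.08 in both lines. The microglia and macrophage list went from 4.81 to 5.10 down to 4.54 to 4.62 in E46, and from 5.04 to 6.44 down to 4.66 to 4.95 in A2/12, with 1 of 8 genes called higher and 1 lower in each line. The endothelial list was at 3.90 to 4.09 in E46 controls and 3.92 to 4.07 at the labelled 100, and went from 3.94 to 4.11 up to 4.57 to 4.75 in A2/12, where 2 of 3 genes were called higher. Of 4 oligodendrocyte markers 1 was above background in each control group. Their mean was 3.87 to 4.23 in E46 controls and 3.92 to 4.26 at the labelled 100. In A2/12 it went from 4.17 to 4.39 down to 4.04 to 4.11, with 1 of 4 called lower. Over all genes 20.3% were called higher and 19.3% lower at the labelled 100 in E46, and 24.8% and 21.1% in A2/12. Where these lists moved, they did so in the same arrays as the synthetases, and their part in the result was not tested.

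The promoters of 6 cytosolic members follow, since the ATF4 element is the sequence best known in these genes. Each window runs from 250 bases before to 50 bases after the gene start, 5′ to 3′ on the gene's strand, from RefSeq on GRCm38.p6. Capitals mark the match to TGATGNAA, the core of the C/EBP-ATF response element, on either strand. The first 4 are the measured members that hold it, and the last 2 are those with the largest changes among the members that have a window without it. The windows are, in order, chr15:11399609-11399908 (minus strand), chr6:55037751-55038050 (plus), chr4:129189653-129189952 (plus), chr13:49681880-49682179 (plus), chr1:185362794-185363093 (plus) and chr3:108445210-108445509 (minus).
Tars1: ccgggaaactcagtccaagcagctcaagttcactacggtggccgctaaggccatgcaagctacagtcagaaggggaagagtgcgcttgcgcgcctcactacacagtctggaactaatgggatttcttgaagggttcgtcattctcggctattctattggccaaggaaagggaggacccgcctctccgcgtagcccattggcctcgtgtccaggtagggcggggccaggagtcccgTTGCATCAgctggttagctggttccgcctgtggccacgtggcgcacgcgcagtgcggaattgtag
Gars1: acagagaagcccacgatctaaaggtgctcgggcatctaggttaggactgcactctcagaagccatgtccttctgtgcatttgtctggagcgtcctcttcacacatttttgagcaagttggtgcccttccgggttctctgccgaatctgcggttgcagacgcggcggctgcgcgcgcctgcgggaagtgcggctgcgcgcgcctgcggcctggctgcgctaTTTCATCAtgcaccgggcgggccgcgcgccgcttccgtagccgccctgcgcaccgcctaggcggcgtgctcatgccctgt
Yars1: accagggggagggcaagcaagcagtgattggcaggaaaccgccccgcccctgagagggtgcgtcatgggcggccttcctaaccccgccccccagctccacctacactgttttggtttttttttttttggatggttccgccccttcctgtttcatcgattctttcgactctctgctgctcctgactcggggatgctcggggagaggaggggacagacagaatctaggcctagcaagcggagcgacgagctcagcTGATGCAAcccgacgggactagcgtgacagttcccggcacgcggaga
Iars1: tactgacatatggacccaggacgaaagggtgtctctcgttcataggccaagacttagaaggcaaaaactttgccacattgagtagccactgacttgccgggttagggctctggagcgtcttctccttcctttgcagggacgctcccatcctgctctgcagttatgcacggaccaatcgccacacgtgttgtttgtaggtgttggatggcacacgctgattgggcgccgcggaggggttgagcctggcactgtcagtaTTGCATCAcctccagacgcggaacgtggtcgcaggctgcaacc
Eprs1: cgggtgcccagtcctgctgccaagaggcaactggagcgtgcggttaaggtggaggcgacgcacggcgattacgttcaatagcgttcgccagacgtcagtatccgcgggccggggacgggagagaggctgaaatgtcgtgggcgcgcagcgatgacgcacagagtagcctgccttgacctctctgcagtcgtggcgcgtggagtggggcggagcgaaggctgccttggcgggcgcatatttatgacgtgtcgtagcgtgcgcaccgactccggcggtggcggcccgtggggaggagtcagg
Sars1: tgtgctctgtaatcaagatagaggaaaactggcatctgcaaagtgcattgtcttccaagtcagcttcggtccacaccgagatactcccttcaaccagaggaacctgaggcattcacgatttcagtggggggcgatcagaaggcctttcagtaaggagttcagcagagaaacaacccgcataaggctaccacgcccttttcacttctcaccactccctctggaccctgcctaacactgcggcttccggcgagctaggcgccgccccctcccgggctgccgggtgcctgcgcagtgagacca

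The match begins 15 bases before the gene start in Tars1 and 30 before it in Gars1, and at base 3 after the start in Yars1 and base 7 in Iars1. It reads TTGCATCA in Tars1 and Iars1, TTTCATCA in Gars1, each the reverse complement of the motif, and TGATGCAA in Yars1. TGATGNAA was found in 5 of 12 cytosolic genes with a window, the 4 shown and Aars1, and in 0 of 14 mitochondrial genes, against 3.63% of 14739 measured genes with a window. The longer form ATTGCATCA, which overlaps TGATGNAA, was in Iars1 and Aars1, 2 of 12 cytosolic and 0 of 14 mitochondrial genes, against 0.183%. CACGTG, the E-box that MYC and related factors bind, was in 4 of 12, Tars1, Iars1, Aars1 and Farsb, and in 1 of 14, Ears2, against 9.57%. The 12 cytosolic genes include Aars1 and Farsb, which were given no value, while the shares of all genes are over measured genes only. Cars1, Hars1, Lars1, Nars1, Rars1, Vars1, Wars1, Hars2 and Pars2 have no window in the table. These are matches of letters, and binding was not measured.

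In E46, serotonin at the labelled 100 went with a rise of almost every cytosolic synthetase. Of 17 measured, 16 rose and none fell, with a median change of 1.04 and a range of 0.14 to 1.55, and 9 rose at least 2-fold. Among all genes 20.3% were called higher and 19.3% lower in this comparison, the median change was 0.00, and 2.31% were called with at least a 2-fold rise. In 16 of the 17 genes all 4 serotonin arrays lay above all 4 controls, which held for 21.0% of all genes. The scan names place the arrays in lettered rows, and 1 row holds control replicate 4 with replicates 1 and 2 of the labelled 100. Within it the median cytosolic difference was 0.95, and 17 of 17 were above 0. With row as a block, where that 1 control carries the comparison, 13 cytosolic genes were called higher and none lower. Hars1, the histidyl enzyme, was not called, at 0.14 ± 0.07 (SE, n = 4 per group; adjusted p = 0.141). It was called with array weights (0.16, adjusted p = 0.0294), with each array centred on its median (0.26, adjusted p = 0.00915) and without replicate 1 of the labelled 100 (0.19, adjusted p = 0.0458).

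A2/12, the line labelled unresponsive, gave the same count. Of 17 cytosolic genes 16 rose and none fell at the labelled 100, with a median of 1.01 and a range of 0.14 to 1.42, and 10 rose at least 2-fold. Over all genes 24.8% were called higher and 21.1% lower, with 4.34% called and at least 2-fold higher. The same 16 genes rose in both lines, and Hars1 was again not called, at 0.14 ± 0.07 (adjusted p = 0.125). It was called there with array weights (0.17, adjusted p = 0.0322) and with median centring (0.30, adjusted p = 0.00268). Its 4 serotonin arrays, at 9.52, 9.58, 9.53 and 9.54, nonetheless lay above its controls at 9.33 to 9.48. All serotonin arrays were above all controls in 16 genes, every one but Qars1, against 23.4% of all genes. The row that holds A2/12 control replicate 4 with replicates 1 and 2 of the labelled 100 had a median cytosolic difference of 0.99, with 17 of 17 above 0. With row as a block 15 were called higher and none lower.

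**Figure D1:**
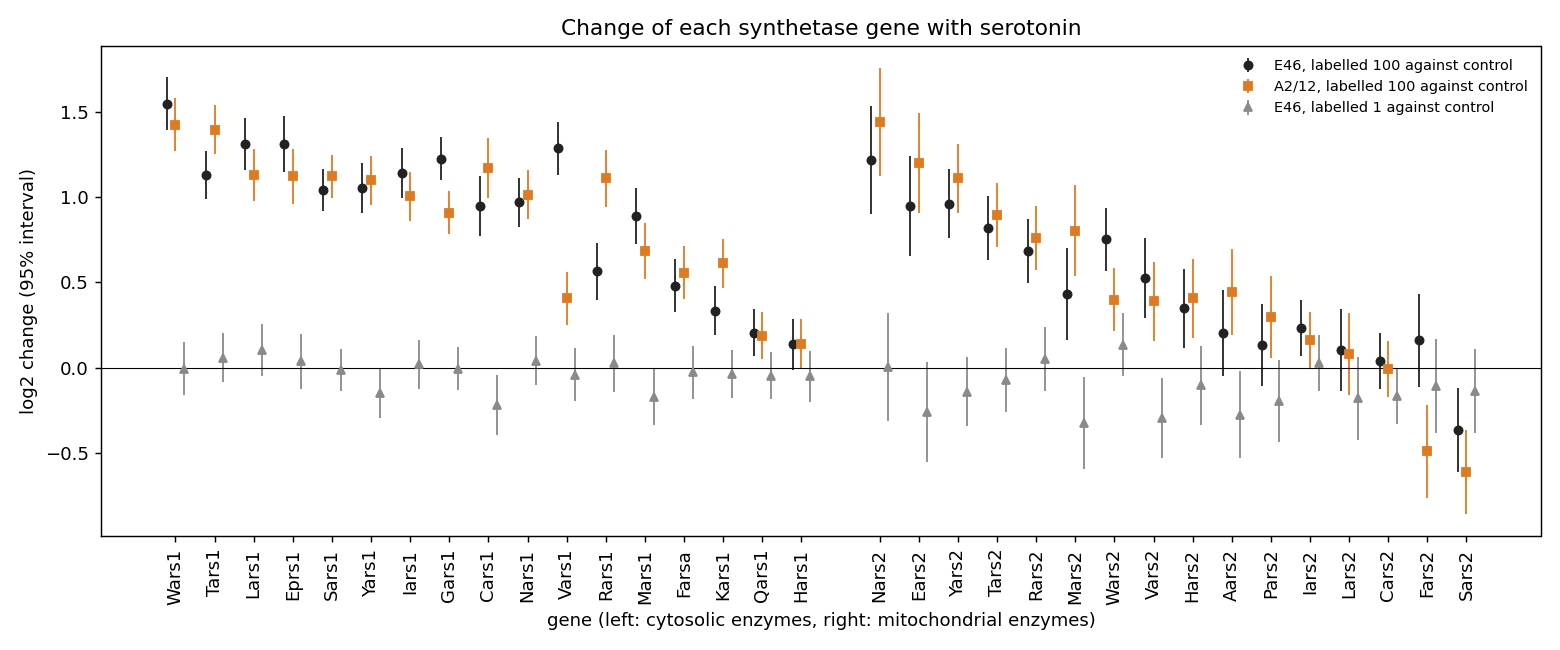
Log2 change of each of the 33 measured synthetase genes (horizontal axis, cytosolic on the left, mitochondrial on the right) with its 95% interval from limma, n = 4 arrays per group. Black circles are E46 and orange squares A2/12 at the labelled 100 against control, and grey triangles E46 at the labelled 1. Most cytosolic points at the labelled 100 lie near 1, mitochondrial points spread from -0.61 to 1.44, and Vars1 and Rars1 are the cytosolic genes whose lines stand farthest apart.

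Wars1, which charges tRNA with tryptophan and is also known as an interferon-induced gene, had the largest cytosolic change in both lines. Its values were 9.13, 9.32, 9.32 and 9.36 in E46 controls, 9.23, 9.39, 9.21 and 9.28 at the labelled 1, and 10.76, 10.81, 10.85 and 10.89 at the labelled 100. In A2/12 it went from 8.90, 8.64, 8.93 and 8.99 to 10.29, 10.24, 10.34 and 10.29. The 100 arrays thus stood clear of every other array of their line, and the labelled 1 arrays lay among the controls. The change was 1.55 ± 0.07 (adjusted p = 2.72e-12) in E46 and 1.42 ± 0.07 (adjusted p = 1.68e-12) in A2/12. That is the rank 105 from the top of 18820 genes in E46 and rank 266 in A2/12.

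Tars1, the threonyl enzyme whose promoter is printed first, had E46 values of 9.30, 9.28, 9.26 and 9.33 in controls, 9.29, 9.30, 9.27 and 9.55 at the labelled 1 and 10.39, 10.41, 10.53 and 10.35 at the labelled 100. Its A2/12 values were 9.07, 9.01, 9.0 and 9.12 in controls and 10.39, 10.50, 10.39 and 10.50 with serotonin. Both lines reached nearly one level from different controls, and the changes were 1.13 ± 0.07 and 1.40 ± 0.07. Yars1, the tyrosyl enzyme, had 9.69, 9.70, 9.69 and 9.79 in E46 controls, 9.45, 9.67, 9.43 and 9.72 at the labelled 1 and 10.69, 10.79, 10.77 and 10.84 at the labelled 100. In A2/12 it had 9.47, 9.54, 9.55 and 9.56 in controls and 10.64, 10.68, 10.53 and 10.65 with serotonin. Its changes of 1.05 and 1.10 were each about 1 log2 unit, with no overlap between groups.

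Sars1, the seryl enzyme, was among the tightest. E46 arrays gave 10.60, 10.62, 10.76 and 10.67 in controls, 10.60, 10.63, 10.58 and 10.79 at the labelled 1 and 11.64, 11.74, 11.69 and 11.75 at the labelled 100. A2/12 arrays gave 10.29, 10.29, 10.29 and 10.34 in controls and 11.42, 11.44, 11.41 and 11.43 with serotonin. With spreads this small beside changes of 1.04 ± 0.06 and 1.12 ± 0.06, the adjusted p-values were 2.06e-11 and 1.94e-12 in limma. Nars1, the asparaginyl enzyme, had the highest mean signal of the family. Its E46 values were 10.88, 10.89, 10.95 and 10.98 in controls, 10.90, 10.96, 10.89 and 11.11 at the labelled 1 and 11.78, 11.95, 11.93 and 11.91 at the labelled 100. Its A2/12 values were 10.63, 10.72, 10.79 and 10.79 in controls and 11.81, 11.79, 11.60 and 11.78 with serotonin. It rose by 0.97 and 1.01 log2 units.

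Eprs1 encodes the only bifunctional member, which charges both glutamate and proline. Its values in E46 were 9.66, 9.70, 9.85 and 9.74 in controls, 9.77, 9.87, 9.57 and 9.90 at the labelled 1, and 10.96, 11.06, 11.09 and 11.09 at the labelled 100. A2/12 started lower, at 8.98, 9.04, 9.15 and 9.26, and reached 10.18, 10.26, 10.19 and 10.29. The changes were 1.31 ± 0.08 and 1.12 ± 0.08, so the gap between the lines remained at both ends. Lars1, the leucyl enzyme, which is also known as a leucine sensor upstream of mTORC1, had 9.66, 9.81, 9.82 and 9.77 in E46 controls, 9.75, 9.88, 9.82 and 10.04 at the labelled 1 and 10.95, 11.12, 11.07 and 11.16 at the labelled 100. Its A2/12 values went from 9.31, 9.35, 9.49 and 9.44 to 10.55, 10.55, 10.41 and 10.59. Its changes of 1.31 and 1.13 were close to those of Eprs1.

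Eprs1, Iars1, Kars1, Lars1, Mars1, Qars1 and Rars1 belong to the cytosolic multisynthetase complex, a grouping chosen here after the values were seen. These 7 had a median change of 0.89 in E46 and 1.00 in A2/12, and the other 10 cytosolic genes 1.05 in both lines. Within the complex the changes were uneven. Iars1, the isoleucyl enzyme, rose by 1.14 and 1.00, Mars1, the methionyl enzyme, by 0.89 and 0.68, and Kars1, the lysyl enzyme, by 0.33 and 0.61 in E46 and A2/12. Qars1, the glutaminyl enzyme, rose least, by 0.21 ± 0.07 (adjusted p = 0.0159) and 0.19 ± 0.07 (adjusted p = 0.0239). Its A2/12 call was lost in 6 of the 8 fits that left out one array, with adjusted p-values of 0.0558 to 0.068.

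The remaining cytosolic genes rose in both lines. Gars1, the glycyl enzyme, rose by 1.22 ± 0.06 in E46 and 0.91 ± 0.06 in A2/12. Cars1, the cysteinyl enzyme, rose by 0.95 ± 0.08 and 1.17 ± 0.08. Farsa, the catalytic alpha subunit of the phenylalanyl enzyme, rose by 0.48 ± 0.08 and 0.56 ± 0.08, less than the class median in each line.

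**Figure D2:**
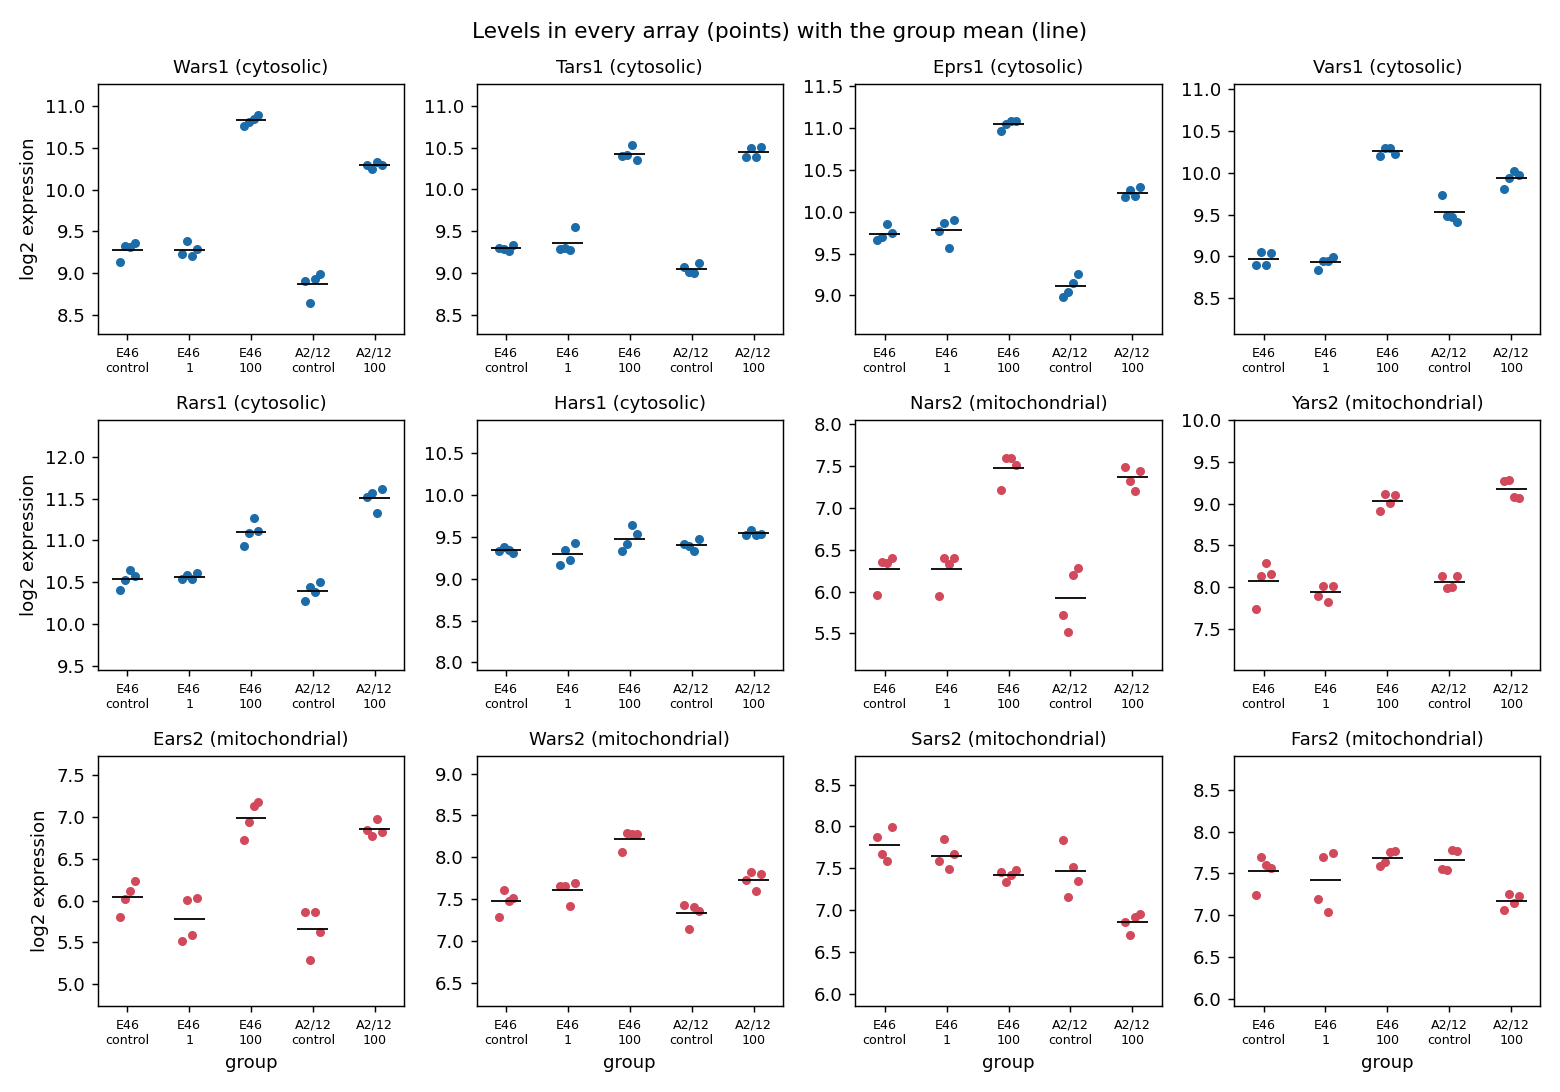
Log2 signal of 12 synthetase genes in each of the 20 arrays, 1 panel per gene with the same vertical span around its own midpoint, with the 5 groups along the horizontal axis and a line at each group mean. The Wars1, Tars1, Eprs1 and Yars2 arrays at the labelled 100 stand apart from the controls of their line, Hars1 arrays lie close together over all groups, and Sars2 is lower at the labelled 100 in both lines.

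The mitochondrial enzymes changed less evenly. Their genes had mean signals over all arrays of 6.27 (Ears2) to 8.53 (Iars2). All measured cytosolic genes were brighter, at 9.15 (Cars1) to 11.25 (Nars1). Folds of dim genes are compressed, so a difference between the classes cannot be told apart from one of signal level. In E46 at the labelled 100, 10 of 16 rose and 1 fell, with a median of 0.39 and a range of -0.36 to 1.22, and 1 rose at least 2-fold. In A2/12, 11 rose and 2 fell, with a median of 0.40 and a range of -0.61 to 1.44, and 3 rose at least 2-fold. The shares called higher over all genes are the 20.3% and 24.8% given above, and those called lower 19.3% and 21.1%. Of the mitochondrial genes 9 rose in both lines and 1, Sars2, fell in both. All serotonin arrays lay above all controls in 10 genes in each line, against 21.0% of all genes in E46 and 23.4% in A2/12. They lay below all controls in 1 gene in E46 and 2 in A2/12, against 19.4% and 19.9% of all genes. Within the rows that hold 1 control and 2 serotonin arrays, the median mitochondrial difference was 0.39 in each line, with 14 of 16 above 0 in E46 and 13 of 16 in A2/12. With row as a block, 6 were called higher and none lower in each line.

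Nars2, the mitochondrial asparaginyl enzyme, had the largest change of its class in both lines. Its values were 5.96, 6.35, 6.34 and 6.40 in E46 controls, 5.95, 6.40, 6.32 and 6.40 at the labelled 1, and 7.22, 7.60, 7.59 and 7.51 at the labelled 100. In A2/12 they were 5.72, 5.51, 6.20 and 6.28 in controls and 7.49, 7.32, 7.21 and 7.44 with serotonin. The groups did not overlap although the controls were spread, and the changes were 1.22 ± 0.15 (adjusted p = 1.14e-06) and 1.44 ± 0.15 (adjusted p = 6.78e-08). Yars2, the tyrosyl enzyme, had 7.73, 8.13, 8.29 and 8.15 in E46 controls, 7.89, 8.02, 7.82 and 8.01 at the labelled 1, and 8.92, 9.12, 9.01 and 9.10 at the labelled 100. In A2/12 it went from 8.14, 7.99, 8.00 and 8.13 to 9.27, 9.28, 9.08 and 9.07. It rose by 0.96 ± 0.10 and 1.11 ± 0.10, close to the changes of its cytosolic partner Yars1.

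Ears2 charges mitochondrial tRNAs for both glutamate and glutamine, the latter product being converted by an amidotransferase, and it had the lowest mean signal of the family. Its E46 values were 5.80, 6.02, 6.11 and 6.23 in controls, 5.51, 6.01, 5.58 and 6.03 at the labelled 1, and 6.72, 6.94, 7.13 and 7.18 at the labelled 100. In A2/12 they were 5.87, 5.29, 5.86 and 5.62 in controls and 6.85, 6.77, 6.98 and 6.82 with serotonin. Every array at the labelled 100 was above every control, and the changes were 0.95 ± 0.14 and 1.20 ± 0.14. Tars2, the threonyl enzyme, rose by 0.82 ± 0.09 and 0.89 ± 0.09, and Rars2, the arginyl enzyme, by 0.68 ± 0.09 and 0.76 ± 0.09. Mars2, the methionyl enzyme, rose by 0.43 ± 0.13 and 0.80 ± 0.13.

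Smaller rises were seen for Vars2, the valyl enzyme, at 0.53 ± 0.11 and 0.39 ± 0.11, and for Hars2, the histidyl enzyme, at 0.35 ± 0.11 and 0.41 ± 0.11. The E46 call of Hars2 was lost without replicate 2 or replicate 3 of the labelled 100 (adjusted p = 0.06 and 0.0606). Iars2, the isoleucyl enzyme, rose in E46, by 0.23 ± 0.08 (adjusted p = 0.0202), and was at 0.16 ± 0.08 in A2/12 (adjusted p = 0.102). Its E46 call was lost without control replicate 1 or without replicate 2 of the labelled 100 (adjusted p of 0.0869 to 0.0912). Aars2, the alanyl enzyme, was at 0.20 ± 0.12 in E46 and rose by 0.44 ± 0.12 in A2/12. Pars2, the prolyl enzyme, was at 0.13 ± 0.11 in E46 and rose by 0.30 ± 0.11 in A2/12 (adjusted p = 0.0388), a call lost in 5 of 8 fits that left out an array. With median centring Aars2 (0.33, adjusted p = 0.00316) and Pars2 (0.26, adjusted p = 0.0187) were called in E46, and Iars2 (0.32, adjusted p = 0.00186) in A2/12. Aars2 was also called in E46 with quantile normalization (0.30, adjusted p = 0.00572). A call in 1 line and not in the other is no test of a difference between them.

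Both Lars2, the leucyl enzyme, and Cars2, the cysteinyl enzyme, went uncalled in both lines. Lars2 was at 0.10 ± 0.12 and 0.08 ± 0.12, with 95% intervals of -0.14 to 0.35 and -0.16 to 0.32. Cars2 was at 0.04 ± 0.08 and -0.01 ± 0.08, with intervals of -0.13 to 0.20 and -0.17 to 0.16. With median centring Lars2 was called higher in both lines, at 0.23 (adjusted p = 0.0325) and 0.24 (adjusted p = 0.0202). The intervals printed above hold none of the rises of 0.95 to 1.31 seen for the cytosolic partners Lars1 and Cars1.

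Sars2, the mitochondrial seryl enzyme, went the other way. Its E46 values were 7.87, 7.67, 7.59 and 7.99 in controls, 7.58, 7.85, 7.49 and 7.66 at the labelled 1, and 7.45, 7.33, 7.41 and 7.48 at the labelled 100. In A2/12 they were 7.84, 7.16, 7.51 and 7.35 in controls and 6.85, 6.70, 6.91 and 6.95 with serotonin. All arrays at the labelled 100 were below all controls of their line. It fell by 0.36 ± 0.12 in E46 (adjusted p = 0.0171) and by 0.61 ± 0.12 in A2/12 (adjusted p = 0.000174). The E46 call was lost without control replicate 4 (-0.29, adjusted p = 0.0701), without replicate 2 of the labelled 100 (-0.33, adjusted p = 0.051), and with each array centred on its median (-0.24, adjusted p = 0.107). With row as a block it was at -0.60 in E46 (adjusted p = 0.055) and -0.57 in A2/12 (adjusted p = 0.051), and neither was called. Median centring raised every member's change by 0.12 in E46 and by 0.16 in A2/12, and with it 14 mitochondrial genes rose and none fell in E46, and 13 rose and 2 fell in A2/12.

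The amino acid pairs show where the classes parted. In 15 cytosolic and mitochondrial pairs, with Eprs1 paired with both Ears2 and Pars2, the cytosolic change was the larger in 12 in E46, in 10 in A2/12 and in 9 in both lines. These differences within pairs were not tested, and in every pair the mitochondrial gene had the lower mean signal. The serine pair was farthest apart, with the change of Sars1 above that of Sars2 by 1.40 in E46 and 1.73 in A2/12. The leucine pair differed by 1.20 and 1.05 and the cysteine pair by 0.91 and 1.18. At the other end the asparagine pair differed by -0.25 and -0.43, so that Nars2 changed more than Nars1, and the histidine pair by -0.21 and -0.27. Of the pairs with strong changes on both sides, the tyrosine pair differed by 0.09 and -0.01.

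Per array, the median difference from the line's control mean was taken over each class. At the labelled 100 the cytosolic median exceeded the mitochondrial one by 0.52 to 0.72 in E46 arrays and by 0.43 to 0.79 in A2/12 arrays. The lowest mitochondrial medians were -0.17, -0.33, -0.25 and -0.17, in the 4 arrays with an upper quartile under 8.2, whose part in the class medians was not tested further than by the fits without them.

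**Figure D3:**
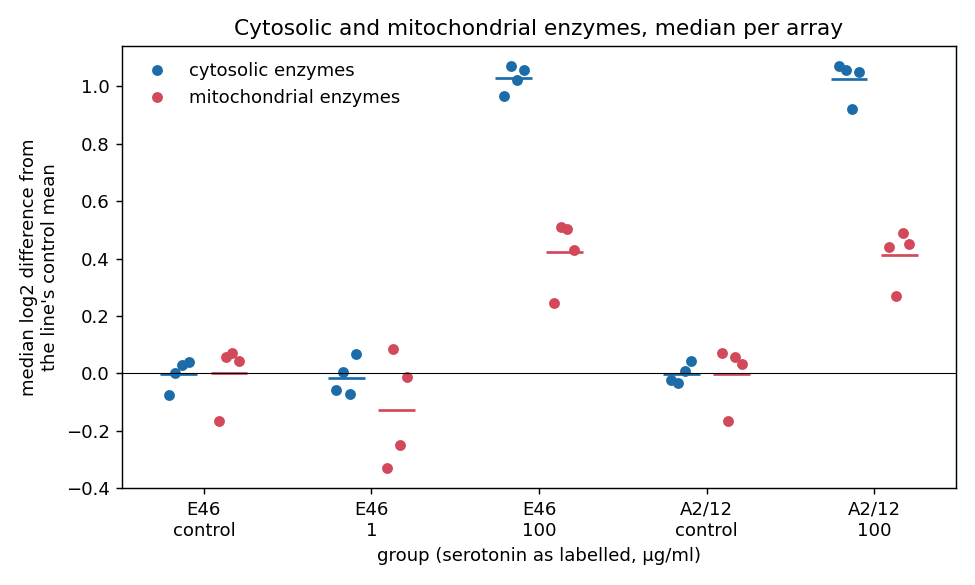
Median log2 difference from the line's control mean over the 17 cytosolic (blue) and the 16 mitochondrial enzymes (red), 1 point per array, with the group along the horizontal axis and a line at the mean of 4 arrays. At the labelled 100 every blue point lies above every red point of the same group. At the labelled 1 the points run from -0.07 to 0.07 in blue and from -0.33 to 0.09 in red. Points of the E46 controls run from -0.07 to 0.04 in blue and from -0.17 to 0.07 in red. The red points at -0.33 and -0.25 thus lie below those of all controls.

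The response of the 2 lines was compared by the difference of their changes, A2/12 minus E46. Among cytosolic genes 2 were called higher and 2 lower, and among mitochondrial genes 0 were called higher and 2 lower, against 10.9% and 11.1% of all genes. The family's counts are therefore near the background of this comparison. Leaving out 1 array at a time gave 1 to 2 mitochondrial calls. With row as a block only Vars1 was called among the 33 genes.

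Vars1, the valyl enzyme, which binds the elongation factor complex eEF1, differed most. Its values in E46 were 8.90, 9.05, 8.90 and 9.04 in controls, 8.84, 8.95, 8.95 and 8.99 at the labelled 1, and 10.20, 10.30, 10.30 and 10.23 at the labelled 100. In A2/12 they were 9.74, 9.48, 9.48 and 9.42 in controls and 9.81, 9.94, 10.03 and 9.98 with serotonin. A2/12 controls began above E46 controls, and with serotonin A2/12 ended below E46. The change was 1.28 ± 0.07 in E46 and 0.41 ± 0.07 in A2/12, a difference of -0.88 ± 0.10 (adjusted p = 2.07e-06).

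Rars1, the arginyl enzyme, went the opposite way. It had 10.41, 10.52, 10.65 and 10.58 in E46 controls, 10.54, 10.58, 10.54 and 10.61 at the labelled 1, and 10.94, 11.09, 11.27 and 11.12 at the labelled 100. In A2/12 it went from 10.27, 10.44, 10.39 and 10.50 to 11.52, 11.57, 11.33 and 11.62. It rose by 0.57 ± 0.08 in E46 and 1.11 ± 0.08 in A2/12, a difference of 0.54 ± 0.11 (adjusted p = 0.00111). The changes of Gars1 differed by -0.32 ± 0.09 (adjusted p = 0.00996), a call lost with median centring (-0.28, adjusted p = 0.0715). Those of Kars1 differed by 0.28 ± 0.10 (adjusted p = 0.0452), a call lost in 13 of 16 fits that left out an array. Tars1 was at 0.27 ± 0.10 (adjusted p = 0.052), and was called with array weights, a filter on dim genes, quantile normalization or trended and robust eBayes (adjusted p of 0.0144 to 0.0372).

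Fars2, the mitochondrial phenylalanyl enzyme, was at 7.24, 7.69, 7.60 and 7.57 in E46 controls, 7.20, 7.70, 7.03 and 7.74 at the labelled 1, and 7.59, 7.63, 7.76 and 7.76 at the labelled 100. In A2/12 it was at 7.55, 7.54, 7.78 and 7.77 in controls and 7.06, 7.25, 7.15 and 7.22 with serotonin. The E46 groups overlapped, while all A2/12 serotonin arrays lay below their controls. The change was 0.16 ± 0.13 in E46 (adjusted p = 0.395), it fell by 0.49 ± 0.13 in A2/12 (adjusted p = 0.00373), and the difference was -0.65 ± 0.19 (adjusted p = 0.014). With median centring Fars2 was called higher in E46 (0.28, adjusted p = 0.0214), and with row as a block its fall in A2/12 was not called (-0.61, adjusted p = 0.0672). Wars2, the tryptophanyl enzyme, had 7.29, 7.61, 7.47 and 7.52 in E46 controls, 7.65, 7.66, 7.42 and 7.70 at the labelled 1, and 8.06, 8.29, 8.27 and 8.28 at the labelled 100. In A2/12 it had 7.43, 7.14, 7.41 and 7.36 in controls and 7.72, 7.82, 7.59 and 7.79 with serotonin. It rose in both, by 0.75 ± 0.09 and 0.40 ± 0.09. The difference of -0.35 ± 0.12 (adjusted p = 0.0476) was lost in 12 of 16 fits that left out an array.

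Across the 33 genes the changes at the labelled 100 in the 2 lines, which rest on separate arrays, correlated at 0.85 (Pearson) and 0.83 (Spearman). Over the cytosolic genes alone these were 0.71 and 0.61, over the mitochondrial genes 0.91 and 0.89, and over all genes 0.69 and 0.64. They are correlations across genes, given as a description, and genes are not independent replicates.

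**Figure D4:**
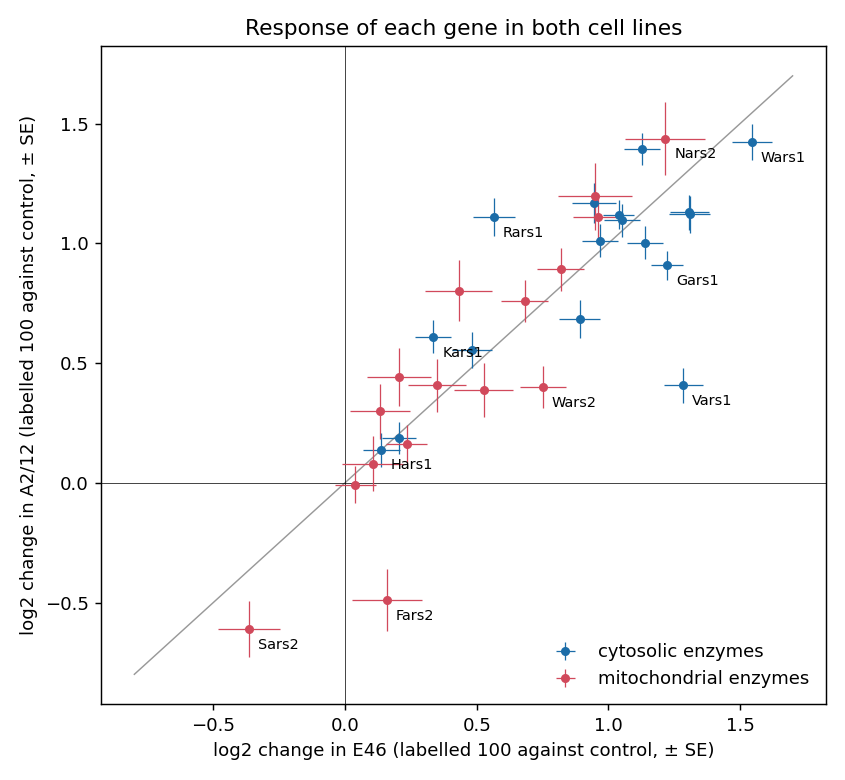
Log2 change at the labelled 100 in A2/12 (vertical axis) against that in E46 (horizontal axis), 1 point per synthetase gene with bars of 1 SE, cytosolic in blue and mitochondrial in red. Most genes lie near the diagonal line of equal change, while Vars1 (difference -0.88) and Fars2 (-0.65) lie below it and Rars1 (0.54) lies above it.

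At the labelled 1 in E46 no synthetase was called in limma, 0 of 17 cytosolic and 0 of 16 mitochondrial. At an unadjusted p below 0.05 there were 3 and 3, against 2993 of 18820 genes in either direction. These were Cars1, Mars1, Yars1, Aars2, Mars2 and Vars2, all of them lower. Over all genes 0.00531% were called higher and 0.00531% lower, 1 gene each. The median changes were -0.01 for cytosolic and -0.14 for mitochondrial genes, against -0.04 for all genes. Without the 4 arrays with a low upper quartile they were 0.01 and -0.02. With row as a block they were -0.22 and -0.51, with no calls, and that fit reaches the labelled 1 group only through its replicate 1, an array of low upper quartile. Mitochondrial changes ran from -0.32 ± 0.13 for Mars2 (adjusted p = 0.252) to 0.14 ± 0.09 for Wars2 (adjusted p = 0.447). The upper ends of the 95% intervals reached at most 0.26 for a cytosolic and 0.32 for a mitochondrial gene, so a rise of the size seen at the labelled 100 for most cytosolic genes lay outside them.

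Against the labelled 1, the labelled 100 showed higher signals for 17 of 17 cytosolic genes (median 1.07) and 13 of 16 mitochondrial genes (median 0.55, or 0.84 with row as a block), with none lower. Over all genes 23.6% were called higher and 17.8% lower. This comparison shares its labelled 100 arrays with the one against controls. Wars1 differed by 1.55 ± 0.07 (adjusted p = 3.09e-12). Hars1 differed by 0.19 ± 0.07 (adjusted p = 0.0394), a call lost in 4 of 8 fits that left out an array. The Hars1 call was also lost with array weights (0.16, adjusted p = 0.0668) and with quantile normalization (0.10, adjusted p = 0.191). The same held with the E46 arrays fitted alone (0.19, adjusted p = 0.0863) and without the 4 arrays with an upper quartile under 8.2 (0.09, adjusted p = 0.446). Sars2 was at -0.23 ± 0.12 and was not called (adjusted p = 0.135). All 4 of its arrays at the labelled 100 lay below the labelled 1 arrays, which held for 16.8% of all genes. The highest of the former was 7.48 and the lowest of the latter 7.49. Sars2 was called lower with array weights (-0.27, adjusted p = 0.0429), with quantile normalization (-0.33, adjusted p = 0.0229) and when the 4 arrays with an upper quartile under 8.2 were left out (-0.34, adjusted p = 0.0473).

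Without serotonin the lines themselves differed in their synthetases. In A2/12 controls against E46 controls 2 of 17 cytosolic genes were called higher and 9 lower, with a median of -0.19. Of 16 mitochondrial genes 1 was higher and 6 lower, with a median of -0.19. Over all genes 18.1% were higher and 21.1% lower, with a median of -0.03. Eprs1 was lower in A2/12, with a difference of -0.63 ± 0.08, as were Mars1 at -0.45 ± 0.08 and Wars1 at -0.42 ± 0.07. Vars1 was higher by 0.56 ± 0.07 (adjusted p = 2.87e-06) and Gars1 by 0.17 ± 0.06 (adjusted p = 0.029), the latter call lost in 5 of 8 fits that left out an array.

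Among the mitochondrial genes Rars2 was lower in A2/12 controls, with a difference of -0.68 ± 0.09, as were Lars2 at -0.51 ± 0.12 and Iars2 at -0.48 ± 0.08. Vars2, at 0.35 ± 0.11 (adjusted p = 0.0162), was the one higher there, and that call was lost without A2/12 control replicate 1 (0.24, adjusted p = 0.077). Both valyl enzymes were therefore higher in A2/12 controls, and most other called members were lower.

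The genes around the synthetases in translation were taken from other lists, whose counts stand beside 20.3% of all genes called higher and 19.3% lower in E46 and 24.8% and 21.1% in A2/12. All 3 scaffold genes of the multisynthetase complex rose in both lines. Eef1e1 rose by 0.66 and 1.59 in E46 and A2/12, Aimp1 by 0.56 and 0.74, and Aimp2 by 0.31 and 0.79. Of 6 charging helpers and proofreading genes 2 rose in E46 and none fell, and 2 rose and 1 fell in A2/12, which is near the shares of all genes. Xpot, the exporter of tRNA from the nucleus, rose by 1.62 ± 0.08 and 1.32 ± 0.08, and Dtd1, a deacylase that removes D-amino acids from tRNA, rose by 0.51 in E46 and fell by 0.35 in A2/12. Of the 4 mitochondrial charging helpers, Gatb, Gatc and Qrsl1 of the amidotransferase that completes glutaminyl-tRNA and Mtfmt, which formylates initiator tRNA, 4 rose in E46 and 3 in A2/12.

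Against the same shares of all genes, 20.3% higher and 19.3% lower in E46 and 24.8% and 21.1% in A2/12, the translation machinery was uneven. Cytosolic initiation factors rose in 21 of 23 genes in E46, with 2 falling, and in 19 of 23 in A2/12, with medians of 0.39 and 0.50. Eif2b3, a subunit of the exchange factor for eIF2, rose by 1.36 and 1.34. Elongation factors rose in 6 of 7 and 5 of 7, with medians of 0.25 and 0.27. Mitochondrial translation factors rose in 6 of 10 and 8 of 10, and Guf1, a mitochondrial elongation factor, rose by 1.06 and 0.84. Mitochondrial ribosomal proteins rose in 31 of 74 and fell in 9 in E46, and rose in 48 and fell in 5 in A2/12, with medians of 0.15 and 0.41. The median of the cytosolic synthetases, 1.04 and 1.01, was above the median of each of these translation factor and ribosomal lists, a description with no test.

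The list of amino acid sensing and ATF4 genes rose in 8 of 9 measured genes in E46 and 9 of 9 in A2/12, beside 20.3% and 24.8% of all genes, with medians of 1.16 and 1.10. Trib3, a pseudokinase that ATF4 induces, rose by 2.62 and 2.96, Chac1, which breaks down glutathione, by 1.69 and 2.40, and Sesn2, a leucine sensor, by 2.15 and 1.65. Eif2ak4 itself was at 0.14 in E46 (adjusted p = 0.407) and rose by 0.81 in A2/12. None of these 8 lists had a called gene at the labelled 1, where only 2 of all 18820 genes were called. The tRNA charging state, GCN2 activity and protein levels were not measured.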

How the data were processed

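The authors deposited log2 values for 35556 probe sets of 20 Affymetrix mouse gene arrays, made with RMA per the submitters' processing notes (version not given in the sources used here). The method corrects background, normalizes between arrays and summarises probes. Folds of dim genes are compressed. Of the probe sets 21218 have 1 symbol, 1881 several and 12457 none, and 21185 were named through RefSeq Entrez IDs. Each of 1386 genes with several probe sets was represented by the one brightest on average across the arrays, leaving 18820 genes. Groups follow the titles.

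From these values limma 3.58.1 in R 4.3.3 fitted 1 mean per group to all 20 arrays (15 residual degrees of freedom), with eBayes and Benjamini-Hochberg adjustment over all genes. The number of arrays limits the precision: standard errors of synthetase changes were 0.06 to 0.15. The script was tested on simulated data. Alternatives were other scalings, moderation, filters, probe set rules, array weights, blocks, positions, doses and leaving out arrays, and, added after seeing the data, the row letter as a block. Figures used matplotlib 3.10.9 in Python 3.11.15.

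The members and lists were chosen with earlier results of these data known. Values in every array are printed for the 6 cytosolic and 3 mitochondrial genes with the largest mean change, genes called against the majority of their class, the 2 genes of each class with the smallest adjusted p for the line difference, and those with the highest and lowest mean. Other lists name at most 3 called genes, and Gatb and Eif2ak4 were chosen after their values were seen.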

Additional observations from a re-analysis of the deposited data

Results flagged for a closer look

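Of 165 groups of 4 arrays, 14 held an array far from the other 3 by Dixon's test at its 95% critical value of 0.829, where chance gives about 1 in 20. Among cytosolic genes these were Cars1 at 8.85 in A2/12 control replicate 4, Nars1 at 11.6 in A2/12 labelled 100 replicate 3, Qars1 at 10.16 in E46 labelled 100 replicate 1 and at 9.84 in A2/12 labelled 100 replicate 2, Sars1 at 10.34 in A2/12 control replicate 4, Tars1 at 9.55 in E46 labelled 1 replicate 4, and Yars1 at 9.79 in E46 control replicate 4. Among mitochondrial genes they were Aars2 at 6.74 in A2/12 labelled 100 replicate 2, Cars2 at 7.66 and Nars2 at 5.96 in E46 control replicate 1, Mars2 at 6.34 and Nars2 at 5.95 in E46 labelled 1 replicate 1, Wars2 at 7.42 in E46 labelled 1 replicate 3, and Wars2 at 8.06 in E46 labelled 100 replicate 1. Of the 7 mitochondrial cases, 5 lie in arrays with an upper quartile under 8.2.

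The response at the labelled 100 differed between the lines, A2/12 minus E46, by limma's test of the difference for Vars1 (-0.88, adjusted p = 2.07e-06), Rars1 (0.54, adjusted p = 0.00111), Gars1 (-0.32, adjusted p = 0.00996), Fars2 (-0.65, adjusted p = 0.014), Kars1 (0.28, adjusted p = 0.0452) and Wars2 (-0.35, adjusted p = 0.0476).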

How the results depend on the processing

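The E46 results depend on which label gives the dose. With the doses of the description in place of the titles, 0 cytosolic and 0 mitochondrial genes were called at 100 against control in limma, 16 and 11 at 1, and 15 and 11 in the line difference. At 100 the changes were then -0.22 for Cars1, -0.0262 for Farsa, -0.0055 for Gars1, -0.0357 for Kars1, -0.17 for Mars1, -0.0456 for Qars1, -0.0141 for Sars1, -0.0409 for Vars1, -0.0047 for Wars1, -0.15 for Yars1, -0.26 for Ears2, -0.10 for Hars2, -0.32 for Mars2, -0.0692 for Tars2, -0.29 for Vars2 and -0.14 for Yars2. Mars2 was at 0.43 at 1, Wars1 at -1.55 and Hars1 at -0.19 for 100 against 1, and the line differences were 0.91 for Gars1, 0.45 for Vars1 and 0.26 for Wars2. The line difference of mitochondrial genes, 2 calls, became 1 with trended and robust eBayes, with median centring and without 2 control arrays, and 1 to 2 with single arrays left out.

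Each position number leaves 1 or 2 arrays in a group, with 1 array on at least one side of every serotonin comparison with controls, and the pooled spread comes from the groups with 2. A lone array is assumed to vary like those, so these counts say little about stability. At position 5, 6 mitochondrial genes were called in E46 at 100, 7 in A2/12 and 4 for 100 against 1, with 2 cytosolic and 1 mitochondrial between controls. At position 7 these were 6 mitochondrial genes in E46 and 2 cytosolic between controls. At position 9, where both controls and both groups at 100 have 1 array each and the spread comes from the E46 labelled 1 pair alone, they were 6 cytosolic and 0 mitochondrial in E46, 7 and 1 in A2/12, 10 and 3 for 100 against 1, and 0 and 0 between controls. The line difference had 0 calls of either class at each position. Wars2 was at 0.0551 in the line difference at position 7, and Qars1 at -0.0733 in A2/12 at position 9. With the row letter as a block, added after seeing the data, 6 mitochondrial genes were called at 100 against control in each line, and the line difference had 1 cytosolic and 0 mitochondrial calls. No row holds both lines, so row and line cannot be told apart between the controls.

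With the replicate number as a block, the mitochondrial line difference had 1 call, and the other counts of calls stayed within 1.5 times. Deviations of same-numbered arrays correlated at -0.26 to 0.41, over 0.1 in 8 of 20 pairs. Differently numbered arrays were not compared, so these values cannot show whether same-numbered arrays are paired. No pairing was assumed.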
